A study of Mus musculus with 28 samples.

Results

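The 10 genes described here encode proteins of the tight junction: the claudins Cldn2, Cldn3, Cldn4, Cldn7, Cldn8, Cldn15 and Cldn23, the membrane proteins occludin (Ocln) and JAM-A (F11r), and the scaffold protein ZO-1 (Tjp1). They were chosen by name, with earlier results of these data known. Their counts beside the shares of all genes are thus a description, not a test of the set. All 10 were found, among 29413 genes in the table of BMP-treated organoids and among 55416 in the table of Tgfb-treated organoids. The organoids were small-intestinal epithelial cultures grown from crypts of wild-type C57BL/6 mice. In the BMP table, 4 samples were untreated controls, 4 received BMP2, and 3 each received BMP3, BMP4, BMP5 or BMP7, all as recombinant protein at 500 ng/ml for 24 h. A separate table held 3 untreated samples and 3 treated with recombinant Tgfb at the same dose and time, and the last table had duodenal mesenchymal cells of a PdgfraH2BeGFP mouse, 1 sample fresh and 1 after immortalisation with a viral oncogene and sorting for the reporter. No group of organoids carried a transgene, and all were seeded in ENR medium without any BMP or Tgfb before treatment. The labels do not say that replicates came from separate animals, so p-values measure the spread between these samples, which may be technical. RNA was measured here, not junction protein, barrier function or ion permeability.

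Tight junctions seal the space between neighbouring epithelial cells near their apical surface. Claudins are membrane proteins that pair across that space. Some, such as Cldn2 and Cldn15, form pores for small cations and water, while others, such as Cldn3, Cldn4 and Cldn8, mainly tighten the seal. Ocln and F11r span the membrane beside them, and Tjp1 ties them to actin. In the small intestine, Cldn2 is known as a crypt gene, Cldn15 as the main sodium pore needed for nutrient uptake, and Cldn4, Cldn7 and Cldn23 as genes of more differentiated cells. BMP ligands are made by the mesenchyme under the epithelium and signal most strongly towards the villus.

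Values in the BMP table are read counts divided by 1 size factor per sample, here called normalized counts. The samples held 21356588 to 24781528 recovered reads. In the Tgfb and mesenchymal tables values are TPM, a relative transcript abundance, which are scaled by length and keep no depth. Fold changes are log2 differences of value + 1 from limma, with Benjamini-Hochberg adjustment over all genes tested, and a gene is said to have risen or fallen when the adjusted p was under 0.05. The cultures were epithelial by their markers. Of 8 mesenchymal markers, 6 were in the BMP table, where their sum was 10.7 to 122 normalized counts. All 8 were in the TPM tables, where their sum was at most 1.09 TPM in organoids and 11058 and 20838 TPM in the mesenchymal samples. Of 8 immune and endothelial markers, 3 passed the filter and all 3 rose with BMP2, as did 36.8% of all genes tested. The sum of the 8 was 593 to 1113 normalized counts over the 20 samples.

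BMP2 changed all 10 genes: 7 rose (Cldn3, Cldn4, Cldn7, Cldn23, Ocln, Tjp1, F11r) and 3 fell (Cldn2, Cldn8, Cldn15). In none did the BMP2 and control samples overlap, and how often that holds over all genes was not counted. Among all 14746 genes tested, 36.8% rose and 38.4% fell with BMP2. BMP4 also passed the threshold for all 10, with 8 higher and 2 lower, against 33.7% and 31.4% of all genes. With BMP5, 5 rose and 1 fell (16.5% and 9.87% of all genes), and with BMP7, 5 rose and 1 fell (19.2% and 13.2%). With both BMP5 and BMP7 the 5 that rose were Cldn4, Cldn7, Cldn23, Tjp1 and F11r, and the 1 that fell was Cldn15. With the replicate block, Cldn2 passed as well, at -0.30 with BMP5 (limma adjusted p 0.0435) and -0.36 with BMP7 (0.0164), which gives 2 lower. That block also raised the number of lower genes among all 14746, from 1455 to 2593 with BMP5 and from 1940 to 3148 with BMP7. Tgfb raised the same 5 genes as BMP5 and BMP7 and lowered Cldn15 and Cldn2, among the 9 that could be tested. Over all genes, 27.4% were higher and 29.3% lower with Tgfb. BMP3 changed 0 of the 10, and 0% of all genes. The median log2 change over the 10 genes was 1.72 for BMP2, 0.72 for BMP4, 0.30 for BMP5 and BMP7 alike and 0.06 for BMP3. Over all genes tested the medians were -0.03, 0.04, -0.03, -0.05 and 0.01 in the same order of BMP2, BMP4, BMP5, BMP7, BMP3. The comparisons of the BMP table share their 4 control samples.

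**Figure D1:**
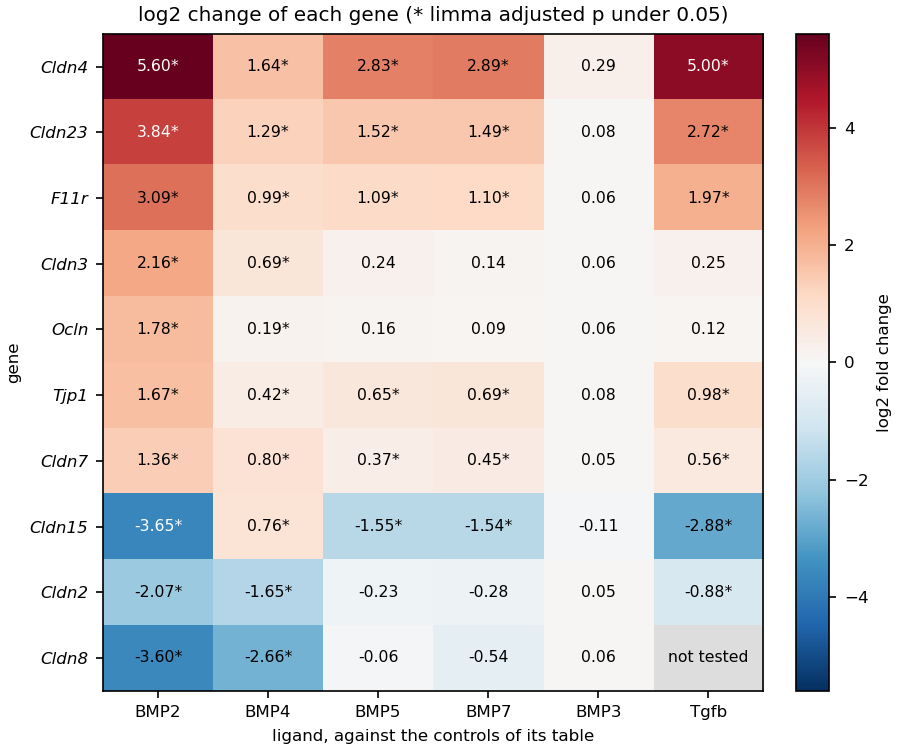
The log2 change of each gene (rows) with each ligand (columns) against the controls of its own table, coloured from blue (lower) to red (higher); an asterisk marks a limma adjusted p under 0.05 and grey a gene not tested. Cldn4 has the highest value in the BMP2, BMP4, BMP5, BMP7 and Tgfb columns, from 1.64 to 5.60, and Cldn15 is above 0 with BMP4 alone, at 0.76.

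Cldn4, a barrier-forming claudin, had the largest rise of the 10 genes with BMP2, BMP4, BMP5, BMP7 and Tgfb, except that under quantile normalization Cldn23 rose more with BMP4 (log2 1.46 against 1.25). The 4 control samples had 2770, 2240, 1090 and 1490 normalized counts of Cldn4, and the 4 BMP2 samples 102000, 90700, 72200 and 83400. Every BMP2 sample was far above every control. The group means were 1898 ± 752 (SD, n = 4) and 87075 ± 12500 (SD, n = 4), a 45.9-fold difference, with a log2 change of 5.60 ± 0.273 (SE; limma adjusted p 2.45e-12). Cldn4 stood at 5850, 6350 and 4590 in the BMP4 samples, 8410, 15700 and 15500 with BMP5, and 13900, 10900 and 15100 with BMP7. All 9 of these samples lay above the controls and below the BMP2 samples. The log2 changes were 1.64 for BMP4, 2.83 for BMP5 and 2.89 for BMP7 (SE 0.295 each; limma adjusted p 8.39e-05, 1.67e-06 and 8.99e-07). BMP4 gave less Cldn4 than BMP7 by 1.25 on the log2 scale (interval -1.91 to -0.59, limma adjusted p 0.00225), and no sample of either group overlapped the other. The order of Cldn4 levels was BMP2, then BMP7 and BMP5, then BMP4, then BMP3 and control. BMP5 and BMP7 did not pass the test against each other, nor did BMP3 and control.

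The sequences before the start sites of Cldn4 and Cldn3 are shown because the 2 genes are immediate neighbours on chromosome 5 and differed in response. That of Cldn15 is shown because its level fell where that of Cldn4 rose most. Each run holds the 250 bases before the start in the RefSeq table (GRCm38.p6), where 8 of the 10 genes had an entry. It is written 5′ to 3′ on the gene's strand: chr5:134946935-134947184, minus strand, for Cldn4, chr5:134985964-134986213, plus strand, for Cldn3, and chr5:136967619-136967868, plus strand, for Cldn15. Capitals mark matches, on either strand, to the 6 motifs named in the next paragraph.
Cldn4: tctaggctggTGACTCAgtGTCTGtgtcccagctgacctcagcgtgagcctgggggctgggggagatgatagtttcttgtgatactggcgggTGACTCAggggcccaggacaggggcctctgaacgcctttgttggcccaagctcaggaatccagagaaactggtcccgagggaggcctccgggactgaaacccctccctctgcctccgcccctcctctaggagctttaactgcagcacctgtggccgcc
Cldn3: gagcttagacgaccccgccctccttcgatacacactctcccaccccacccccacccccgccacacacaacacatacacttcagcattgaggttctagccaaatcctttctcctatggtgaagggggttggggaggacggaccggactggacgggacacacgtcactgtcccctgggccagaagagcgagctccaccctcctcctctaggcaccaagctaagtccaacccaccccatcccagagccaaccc
Cldn15: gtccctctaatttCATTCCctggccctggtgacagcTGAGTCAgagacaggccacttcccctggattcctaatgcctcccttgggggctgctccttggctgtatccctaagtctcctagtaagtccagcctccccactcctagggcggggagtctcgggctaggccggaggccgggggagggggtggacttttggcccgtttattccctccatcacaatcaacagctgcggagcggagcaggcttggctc

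Both strands were searched for the AP-1 motif TGANTCA, the SMAD box GTCTG, the GC-rich SMAD motif GGCGCC, the CDX motif TTTATNG, the GATA motif AGATAA and the TEAD motif CATTCC. The Cldn4 run held 2 AP-1 matches and 1 SMAD box, the Cldn3 run held none of the 6, and the Cldn15 run held 1 AP-1 and 1 TEAD match; no match overlapped another. Over the 8 genes with an entry, 3 had an AP-1 match (Cldn4, Cldn15 and F11r), 3 a TEAD match (Cldn2, Cldn7 and Cldn15), 2 a SMAD box (Cldn4 and Cldn7) and 1 the GC-rich motif (F11r). These 8 genes had 10 promoters, as Cldn7 and Ocln had more than 1, and a gene counted if any of its promoters matched. No run of the 8 genes held the CDX or GATA motif. The shares that follow count each promoter singly, so they are not per gene. Among 32851 promoters of the same length, 6.75% had an AP-1 match, 12.6% a TEAD match, 42.2% a SMAD box, 9.59% the GC-rich motif, 9.81% the CDX motif and 9.99% the GATA motif. Genes with an AP-1 match here both rose (Cldn4, F11r) and fell (Cldn15) with BMP2.

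Cldn3, the neighbour of Cldn4 and also a barrier-forming claudin, rose with BMP2 and BMP4 and passed the test with no other ligand. It stood at 3170, 2810, 2200 and 2750 normalized counts in the controls and at 15400, 13600, 9320 and 11000 with BMP2. The BMP2 mean of 12330 ± 2700 (SD, n = 4) was 4.51-fold the control mean of 2732 ± 401 (SD, n = 4), with a log2 change of 2.16 ± 0.151 (SE; limma adjusted p 2.30e-10). With BMP4 the 3 samples had 4770, 4750 and 3670, all above the controls, and a log2 change of 0.69 ± 0.163 (SE; limma adjusted p 0.00111). The BMP5 samples (3060, 3260, 3270) and the BMP7 samples (2950, 2770, 3260) overlapped the controls. Their log2 differences were 0.24 (interval -0.10 to 0.58, limma adjusted p 0.312) and 0.14 (-0.20 to 0.48, limma adjusted p 0.534). For comparison, the intervals for Cldn4 in those comparisons were 2.21 to 3.45 with BMP5 and 2.27 to 3.51 with BMP7. The BMP4 rise of Cldn3 missed the threshold with the same total in every sample (log2 0.29, limma adjusted p 0.113) and under quantile normalization (0.28, 0.123). In the RefSeq table another gene, Wbscr25, overlaps the end of Cldn3, and an uncharacterised locus overlaps Ocln. Whether reads were counted by strand is not given in the sources used here, so reads there may be shared.

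Cldn23, a claudin of differentiated epithelium, rose with BMP2, BMP4, BMP5 and BMP7. Its control samples had 248, 219, 167 and 216 normalized counts, against 2880, 3110, 2750 and 3390 with BMP2. The difference was 14.3-fold, from a mean of 212 ± 33.6 to 3032 ± 281 (n = 4 each, SD), or a log2 change of 3.84 ± 0.193 (SE; limma adjusted p 3.40e-12). The 3 BMP4 samples (518, 582, 452), the 3 BMP5 samples (426, 668, 783) and the 3 BMP7 samples (453, 526, 866) were all above every control. Their log2 changes were 1.29, 1.52 and 1.49 (limma adjusted p 2.59e-05, 2.84e-05 and 2.53e-05). These 3 groups overlapped one another.

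Cldn7, which is found along the whole side of the cell as well as at the junction, rose with the same 4 ligands by less. Controls had 7500, 6800, 6210 and 7340 normalized counts and BMP2 samples 19500, 17900, 15500 and 18500, a 2.56-fold difference of means. The log2 change was 1.36 ± 0.0847 (SE; limma adjusted p 5.19e-11). BMP4 samples stood at 12300, 11800 and 12300, BMP5 at 8890, 9010 and 8970, and BMP7 at 9430, 9060 and 10000. None of these groups overlapped the controls, and the log2 changes were 0.80, 0.37 and 0.45 (limma adjusted p 3.94e-07, 0.00598 and 0.00093). The 3 BMP5 samples all lay below the 3 BMP7 samples, with a log2 difference of -0.08 (interval -0.29 to 0.12) that did not pass the test.

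Cldn15, a cation pore, was the 1 gene of the 10 that rose with BMP4 and fell with BMP2, BMP5 and BMP7. Controls had 3110, 3400, 3790 and 3850 normalized counts of Cldn15. BMP2 samples had 188, 294, 234 and 472, and BMP4 samples 5900, 6280 and 5730. Every BMP4 sample was above every control, and every BMP2 sample was far below. The means were 3538 ± 348 (SD, n = 4) in controls, 297 ± 124 (SD, n = 4) with BMP2 and 5970 ± 282 (SD, n = 3) with BMP4. The log2 changes were -3.65 ± 0.204 with BMP2 (SE; limma adjusted p 1.31e-11) and 0.76 ± 0.221 with BMP4 (SE; limma adjusted p 0.00554). Tested directly, Cldn15 was 20.1-fold lower with BMP2 than with BMP4, a log2 difference of -4.41 (interval -4.87 to -3.95, limma adjusted p 7.10e-12). BMP5 samples (1610, 926, 1160) and BMP7 samples (1070, 1340, 1230) lay between BMP2 and control, with log2 changes of -1.55 and -1.54 (limma adjusted p 4.18e-05 and 3.17e-05). The order of levels was BMP4, then control and BMP3, then BMP5 and BMP7, then BMP2. Neither BMP3 against control nor BMP5 against BMP7 passed the test. The BMP4 rise did not pass the test when every sample was scaled to the same total (log2 0.36, limma adjusted p 0.151) or under quantile normalization (0.30, 0.194), while the direct difference from BMP2 stayed between -4.66 and -3.94 over 17 alternatives.

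Cldn2, the other cation pore, fell with both BMP2 and BMP4. Controls had 8090, 7650, 6740 and 7770 normalized counts of Cldn2, BMP2 samples 1720, 2350, 1360 and 1890, and BMP4 samples 2630, 2150 and 2470. Both treated groups lay below every control. The mean fell 4.13-fold with BMP2, from 7562 ± 579 to 1830 ± 411 (SD, n = 4 each), and 3.13-fold with BMP4, to 2417 ± 244 (SD, n = 3). The log2 changes were -2.07 ± 0.127 and -1.65 ± 0.137 (SE; limma adjusted p 4.15e-11 and 8.91e-09). Cldn2 was lower with BMP2 than with BMP4 by a log2 difference of -0.42 (limma adjusted p 0.011), with overlapping samples. Without BMP4 replicate II that difference was -0.36 (limma adjusted p 0.0555). The BMP5 samples (7400, 6310, 5730) overlapped the controls, and the BMP7 samples (6200, 6250, 6130) lay just below them. Neither passed in the reported fit, which has no block, at -0.23 (limma adjusted p 0.245) and -0.28 (0.121). Under quantile normalization both passed, at -0.34 with BMP5 (limma adjusted p 0.0254) and -0.47 with BMP7 (0.00289). BMP7 also passed with the same total in every sample (-0.36, limma adjusted p 0.0395) and in a fit of only the 2 groups compared (-0.28, 0.031). In BMP5 and BMP7 against control, samples with the same replicate number deviated together. With the replicate block both passed at the values given above.

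Cldn8, a barrier-forming claudin best known from the colon and kidney, was low in these cultures and fell with BMP2 and BMP4. Controls had 35.5, 24.9, 26.6 and 18.2 normalized counts of Cldn8. The 4 BMP2 samples held 1, 1, 0 and 3 reads, and BMP4 samples had 2.37, 9.13 and 1.2 normalized counts. With every BMP2 sample at or under the floor of 3 reads per library, Cldn8 was at least 7.22-fold lower than the control mean of 26.3 ± 7.13 (SD, n = 4), counting error only. The limma tests gave adjusted p 9.28e-07 for BMP2 and 0.000119 for BMP4, where the log2 change was -2.66 ± 0.496 (SE). The BMP5 samples (31.4, 20.4, 22.8) and BMP7 samples (17.2, 21, 14.4) overlapped the controls, and neither group passed the test.

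Ocln, a membrane protein of the junction, rose with BMP2, and its samples with the other ligands stayed close to the controls. Controls had 3670, 3320, 3120 and 3260 normalized counts of Ocln, and BMP2 samples 11500, 12100, 11100 and 11100. The difference was 3.43-fold, a log2 change of 1.78 ± 0.0719 (SE; limma adjusted p 4.03e-13). BMP4 samples had 3960, 3910 and 3530 and overlapped the controls. The BMP4 log2 change of 0.19 ± 0.0776 (SE) passed the test narrowly (limma adjusted p 0.0434). It turned to -0.21 with the same total in every sample (limma adjusted p 0.0189) and to -0.23 under quantile normalization (0.00897), so its direction depends on the scaling. It also missed the threshold without control replicate III (0.18, limma adjusted p 0.0756), IV (0.15, 0.115) or VI (0.17, 0.0865), and without BMP4 replicate II (0.16, 0.147) or III (0.16, 0.124). BMP5 samples (3630, 3820, 3750) and BMP7 samples (3340, 3460, 3840) did not pass, with log2 differences of 0.16 and 0.09 (limma adjusted p 0.138 and 0.418).

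F11r, the adhesion molecule JAM-A, rose with BMP2, BMP4, BMP5 and BMP7. Controls had 3510, 2830, 2740 and 2850 normalized counts of F11r, and BMP2 samples 28900, 26500, 22000 and 24000. The means differed 8.5-fold, 2982 ± 355 against 25350 ± 3000 (n = 4 each, SD), or a log2 change of 3.09 ± 0.118 (SE; limma adjusted p 2.79e-13). BMP4 samples (6350, 6100, 5270), BMP5 samples (5220, 6610, 7270) and BMP7 samples (6400, 5760, 6990) all lay above the controls and overlapped one another. Their log2 changes were 0.99, 1.09 and 1.10 (limma adjusted p 1.94e-06, 6.20e-06 and 3.46e-06).

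Tjp1, the scaffold that links the junction to actin, also rose with the same 4 ligands. Controls had 4270, 3810, 4190 and 3410 normalized counts of Tjp1, and BMP2 samples 11400, 12800, 14300 and 11300, a 3.18-fold difference (log2 1.67 ± 0.0905 SE; limma adjusted p 8.89e-12). BMP4 samples had 4910, 5420 and 5350, BMP5 samples 5550, 6630 and 6250, and BMP7 samples 6510, 6470 and 5970. None overlapped the controls. The log2 changes were 0.42, 0.65 and 0.69 (limma adjusted p 0.000979, 7.51e-05 and 2.74e-05). The BMP4 value was 0.02 with the same total in every sample (limma adjusted p 0.885) and -0.03 under quantile normalization (0.789).

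**Figure D2:**
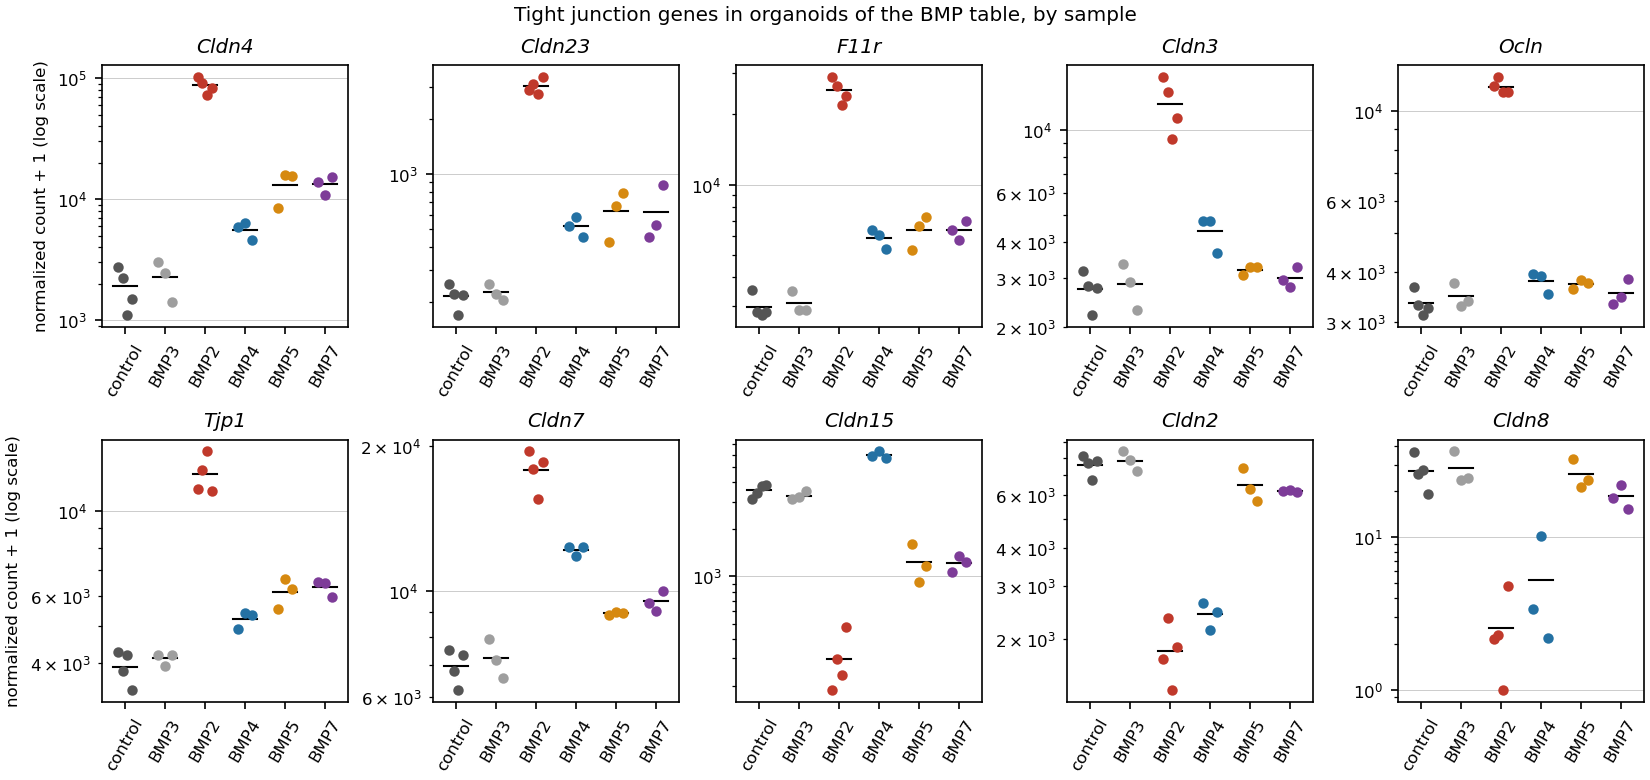
Normalized count + 1 of each gene (log axis, a scale of its own in each panel) in every sample of the BMP table; points are samples and bars are group means. BMP2 samples are the highest for 7 genes and the lowest on average for Cldn15, Cldn2 and Cldn8, and BMP4 samples are the highest for Cldn15, between 5730 and 6280.

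The choice of scaling matters most for BMP4. Giving every sample the same total moved the median log2 change of all 14746 genes by -0.39 with BMP4 and by -0.45 with BMP2. The summed normalized counts of the BMP2 and BMP4 samples were above those of the other samples. With BMP4, 8 higher and 2 lower became 4 higher and 3 lower under the same total, and also under quantile normalization, where 32.5% of all genes were higher and 33.4% lower. Cldn4, Cldn7, Cldn23 and F11r passed as higher under both, at 1.24, 0.40, 0.89 and 0.59 with the same total and at 1.25, 0.19, 1.46 and 0.54 under quantile normalization. The Cldn7 value of 0.19 compares with 0.80 on the deposited scale. Cldn2 and Cldn8 passed as lower under both. Measured from the median of all genes under quantile normalization, Cldn3 was at 0.25, Cldn15 at 0.27, Tjp1 at -0.06 and Ocln at -0.27, against 0.64, 0.72, 0.38 and 0.14 on the deposited scale. With BMP2, 7 genes were higher and 3 lower under both scalings. Over all genes, the split with BMP2 went from 36.8% higher and 38.4% lower to 24.6% and 52.8% with the same total, and with BMP4 from 33.7% and 31.4% to 21% and 46.5%.

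**Figure D3:**
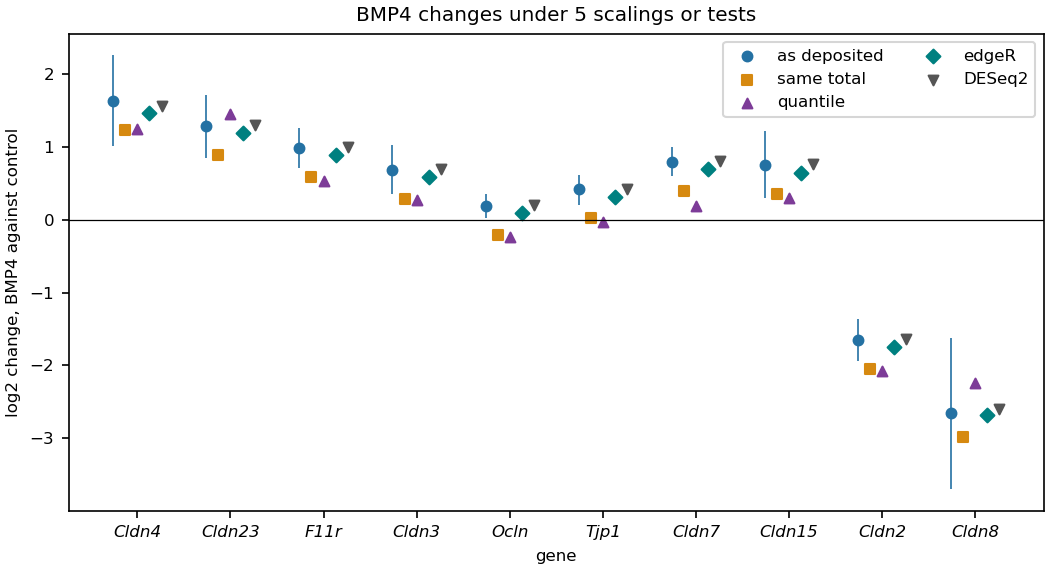
The log2 change of each gene with BMP4 against control under 5 scalings or tests; lines are 95% intervals of the limma fit on the deposited scale. Ocln lies at 0.19 on the deposited scale and below 0 with the same total (-0.21) and under quantile normalization (-0.23), while Cldn4, Cldn23, F11r, Cldn3, Cldn7 and Cldn15 stay above 0 and Cldn2 and Cldn8 below.

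The ligands were also compared directly at the matched dose and time, with p-values adjusted over all genes. The moderated F-test among the 5 ligands passed for 10 of 10 genes and for 84.1% of all genes. Against BMP4, BMP2 gave more of 7 genes (Cldn3, Cldn4, Cldn7, Cldn23, Ocln, Tjp1, F11r) and less of Cldn2 and Cldn15, where 33.4% of all genes were higher and 33.4% lower. The largest of the 7 was Cldn4, 15.6-fold higher (log2 3.96, limma adjusted p 1.11e-09). Cldn8 did not pass (log2 -0.94, interval -1.98 to 0.10, limma adjusted p 0.103). It passed without BMP2 replicate VI (-1.31, limma adjusted p 0.0222) and without BMP4 replicate VI (-1.41, 0.0249). Against BMP7, BMP2 gave more of the same 7 genes and less of Cldn2, Cldn8 and Cldn15, where 31.4% of all genes were higher and 31.4% lower. Its largest difference upwards was again Cldn4, at 6.55-fold (log2 2.71, limma adjusted p 2.94e-07).

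BMP4 and BMP7 differed in both directions. Cldn15 (log2 2.30), Cldn3 (0.55) and Cldn7 (0.35) were higher with BMP4, and Cldn8 (-2.12), Cldn2 (-1.36), Cldn4 (-1.25) and Tjp1 (-0.27) were lower. Among all genes 28.4% were higher and 31.4% lower. The limma adjusted p was 1.58e-07 for Cldn15, 2.86e-07 for Cldn2, 0.00204 for Cldn8, 0.0111 for Cldn3 and 0.00436 for Cldn7. Tjp1 passed at 0.0309 and missed without BMP4 replicate II (-0.23, 0.112), BMP7 replicate II (-0.25, 0.0859) or BMP7 replicate III (-0.26, 0.0788). With the same total in every sample, which moved the median of all genes by -0.32, 1 of the 10 was higher (Cldn15) and 7 were lower, as Cldn23, Ocln and F11r then passed and Cldn3 and Cldn7 no longer did. Under quantile normalization 1 was higher and 5 lower, where 29.3% of all genes were higher and 31.9% lower. Cldn15, Cldn2, Cldn4, Cldn8 and Tjp1 kept their direction and passed under both scalings. Tjp1 was at -0.60 with the same total (limma adjusted p 0.000176) and -0.59 under quantile normalization (0.000148). Cldn3 kept its direction without passing, at 0.22 and 0.26. Over all genes the split with the same total was 18.1% higher and 45% lower.

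BMP5 and BMP7 did not differ past the threshold in these 10 genes. No gene of the 10 passed the limma test between them, none had an unadjusted p under 0.05, and edgeR and DESeq2 on the recovered reads called 0 as well. Among all genes 0.0136% passed and 2.35% had an unadjusted p under 0.05. The log2 differences ran from -0.08 for Cldn7 to 0.47 for Cldn8. The intervals were -0.72 to 0.61 for Cldn4, -0.51 to 0.49 for Cldn15, -0.25 to 0.37 for Cldn2, -0.43 to 0.50 for Cldn23 and -0.64 to 1.59 for Cldn8, so differences of that size remain possible. BMP3 against control gave small differences too. The log2 differences of the 10 genes ran from -0.11 for Cldn15 to 0.29 for Cldn4 (interval -0.33 to 0.91), and 0 had an unadjusted p under 0.05, against 0.746% of all genes. Here edgeR and DESeq2 also called 0 of the 10.

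Tgfb was tested in the separate table, where 9 of the 10 genes reached the mean of 1 TPM needed for the test. Cldn4 stood at 17.6, 24.5 and 22 TPM in the controls and at 658, 710 and 772 with Tgfb, a 33.3-fold difference (log2 5.00 ± 0.131 SE; limma adjusted p 3.39e-06). Cldn23 went from 4.09, 4.56 and 9.1 TPM to 39.9, 35.2 and 54.8 (log2 2.72 ± 0.295 SE; limma adjusted p 0.000418). Cldn15 went from 137, 148 and 151 TPM to 18, 19.2 and 19.5, a 7.72-fold fall (log2 -2.88 ± 0.0677 SE; limma adjusted p 2.43e-06). In these 3 genes, and in the 4 that follow, no control sample overlapped a Tgfb sample. The share of all genes without such overlap was not counted. F11r rose from 55.7 ± 1.53 to 222 ± 24 TPM (SD, n = 3; log2 1.97, limma adjusted p 1.63e-05), and Tjp1 from 35.7 ± 2.93 to 71.1 ± 3.77 (log2 0.98, limma adjusted p 0.000149). Cldn7 rose from 519 ± 35.7 to 766 ± 65.2 TPM (log2 0.56, limma adjusted p 0.00292), and Cldn2 fell from 117 ± 8.45 to 63.5 ± 3.54 (log2 -0.88, limma adjusted p 0.000202).

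Cldn3 and Ocln did not pass the test with Tgfb. Cldn3 had 113, 129 and 136 TPM in controls and 134, 151 and 165 with Tgfb (log2 0.25, interval -0.01 to 0.51, limma adjusted p 0.0899). Without Tgfb replicate I it passed (0.33, limma adjusted p 0.0467), as it did under quantile normalization (0.22, 0.018). Ocln had 69, 74.6 and 68.5 TPM in controls and 64.5, 89.7 and 77.7 with Tgfb (log2 0.12, interval -0.19 to 0.42, limma adjusted p 0.46). The 2 genes were thus the ones whose Tgfb and control samples overlapped. Cldn8 was under the minimum mean, at 0.658, 0.773 and 0.367 TPM in controls and 0.0659, 0.171 and 0.166 with Tgfb. With no minimum it passed as lower (log2 -0.49, limma adjusted p 0.0211).

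**Figure D4:**
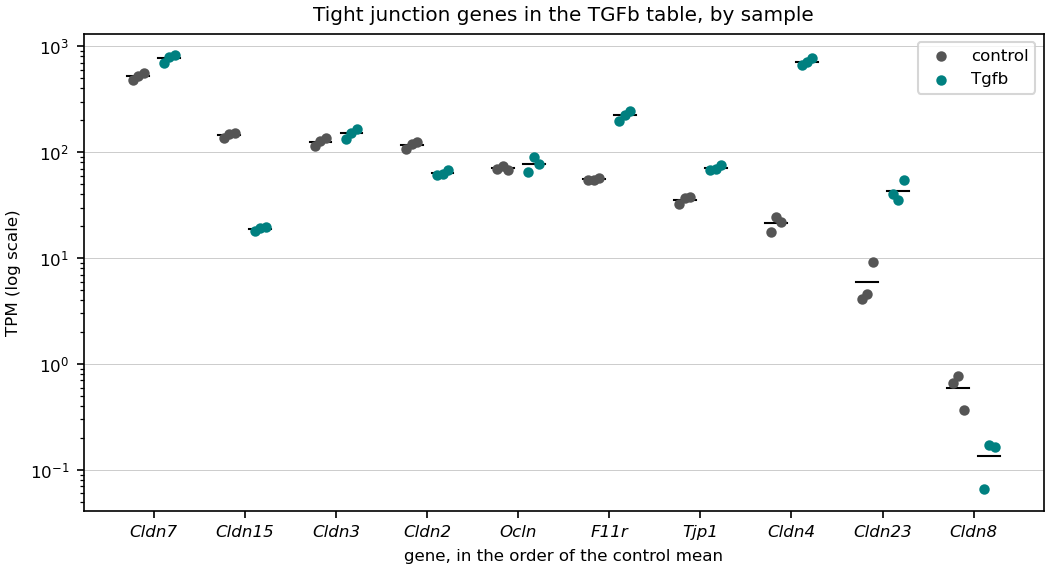
TPM of each gene (log axis) in the 3 control and 3 Tgfb samples, ordered by the control mean; points are samples and bars are means. Cldn4 moves from 21.4 to 713 TPM on average and Cldn15 from 146 to 18.9, while the control and Tgfb samples of Cldn3 and Ocln overlap.

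Because TPM is scaled by length, the make-up of the claudin pool can be read in that table. Summed over 35 claudin genes, controls held 978 ± 65.8 TPM and Tgfb samples 1800 ± 155 TPM (SD, n = 3). Cldn7 was the most abundant claudin in controls, at 53% ± 0.404 of the claudin TPM, followed by Cldn15 at 14.9% ± 0.265, Cldn3 at 12.9% ± 0.404 and Cldn2 at 12% ± 0.1. Cldn4 made up 2.18% ± 0.28 and Cldn23 0.597% ± 0.244. With Tgfb, Cldn7 held 42.6% ± 0.737 and Cldn4 39.7% ± 0.503. Cldn3 then held 8.33% ± 0.135, Cldn2 3.53% ± 0.154, Cldn23 2.4% ± 0.437 and Cldn15 1.05% ± 0.0503. Among the 7 claudins, Cldn15 went from the second place to the sixth. Ranges of these shares did not overlap between control and Tgfb for any of the claudins named here. They are shares of a pool that itself grew, so the share of Cldn7 was lower with Tgfb although its TPM rose.

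**Figure D5:**
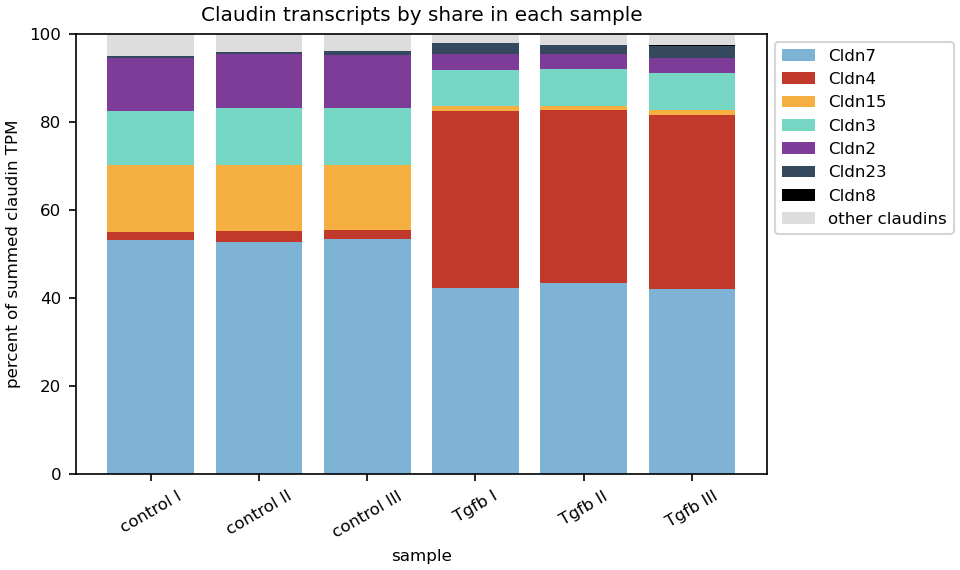
Share of the summed claudin TPM held by each of the 7 claudins and by all other claudins together, in each control and Tgfb sample; each bar adds up to 100%. Cldn4 takes 2.18% on average in controls and 39.7% with Tgfb, and Cldn15 14.9% and 1.05%.

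The other genes of the junction were read from lists, whose counts stand against the shares of all genes: 36.8% higher and 38.4% lower with BMP2, 33.7% and 31.4% with BMP4, 16.5% and 9.87% with BMP5, 19.2% and 13.2% under BMP7, and 27.4% and 29.3% under Tgfb. Of 12 other junction membrane proteins 10 could be tested, and 10 rose with BMP2, 6 in the BMP4 samples, 9 and 8 under BMP5 and BMP7, and 9 under Tgfb, while 0 fell. The median log2 change of this list was 1.86 for BMP2, 0.64 for BMP4, 0.56 for BMP5, 0.52 for BMP7 and 0.99 for Tgfb. Jam2, a relative of F11r that reached the mean for naming through its BMP2 samples, went from 3.64 ± 1.49 normalized counts in controls to 219 ± 105 with BMP2 and 35.7 ± 17.8 with BMP4 (log2 5.53 and 2.93, limma adjusted p 4.47e-08 and 0.000338). With BMP5 and BMP7 Jam2 also rose most, to 16.5 ± 8.1 and 29.7 ± 18 (log2 1.84 and 2.53, limma adjusted p 0.0319 and 0.00364). Epcam, an adhesion protein that binds Cldn7, rose from 756 ± 27.5 to 1976 ± 211 TPM with Tgfb (log2 1.38, limma adjusted p 7.47e-05). Of 21 other claudins, 4 could be tested in the BMP table. With BMP2 3 rose and 1 fell. Cldn18, known from stomach and lung, rose from 100 ± 32.3 to 688 ± 263 normalized counts (log2 2.74, limma adjusted p 5.11e-06). Cldn12 fell slightly, from 1632 ± 84.2 to 1390 ± 107 with BMP2 and to 1380 ± 36.1 with BMP4 (log2 -0.23 and -0.24, limma adjusted p 0.00402 and 0.00673). BMP4 raised 1 and lowered 1, BMP5 raised 1, BMP7 changed 0, and Tgfb raised 1 of 2 tested.

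Among scaffold and polarity proteins, 15 of 16 could be tested. With BMP2 14 rose and 0 fell (36.8% and 38.4% of all genes), and with BMP4 10 rose and 2 fell (33.7% and 31.4%). BMP5 raised 10 (16.5% of all genes), BMP7 11 (19.2%) and Tgfb 11 (27.4%), and these lowered 0. Cgnl1, a relative of the junction protein cingulin, took opposite directions. It fell with BMP4 from 781 ± 92.1 to 216 ± 6.08 normalized counts (log2 -1.84, limma adjusted p 7.52e-11) and rose to 2200 ± 255 with BMP5 and 1903 ± 110 with BMP7 (log2 1.49 and 1.29, limma adjusted p 3.47e-08 and 6.00e-08). With Tgfb it rose from 3.61 ± 0.235 to 19.8 ± 1.41 TPM (log2 2.18, limma adjusted p 9.53e-06), and it reached the mean for naming there through its Tgfb samples. Amotl2, which binds the polarity complex, rose most with BMP2 (271 ± 84.6 to 1688 ± 718, log2 2.60, limma adjusted p 4.58e-07). Mpp5, listed under its other name Pals1, rose most with BMP4 (1365 ± 63.5 to 3463 ± 178, log2 1.34, limma adjusted p 6.33e-11).

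Of 14 regulators of the junction, all tested, 11 rose and 2 fell with BMP2, where 36.8% and 38.4% of all genes did. The counts were 9 and 3 for BMP4 (33.7% and 31.4% of all genes), 9 and 2 for BMP5 (16.5% and 9.87%), 8 and 2 for BMP7 (19.2% and 13.2%), and 10 and 3 for Tgfb (27.4% and 29.3%). Arhgef2, a guanine nucleotide exchange factor held at the junction, rose most with BMP2 (460 ± 88 to 3150 ± 672 normalized counts, log2 2.77, limma adjusted p 1.70e-09), BMP5, BMP7 and Tgfb. For Tgfb it reached the mean for naming through its Tgfb samples, with 8.53 ± 1.06 TPM in controls and 47.3 ± 8.59 TPM with Tgfb. Mylk, the myosin light chain kinase that loosens the junction, rose most with BMP4 (726 ± 114 to 5180 ± 231, log2 2.85, limma adjusted p 5.54e-10). Wnk4, a kinase that acts on claudins, fell most with BMP2 and BMP4 (log2 -1.68 and -1.34, limma adjusted p 5.72e-09 and 6.80e-07). Prss8, a membrane protease, fell most with BMP5, BMP7 and Tgfb (log2 -0.59, -0.77 and -1.01).

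Of 16 transcription factors tied to claudin genes 12 could be tested, and BMP4 raised 9 and lowered 2, against 33.7% and 31.4% of all genes. BMP2 raised 4 and lowered 3, which is no more than its shares of all genes, 36.8% and 38.4%. With BMP5 1 rose and 3 fell (16.5% and 9.87% of all genes), with BMP7 2 and 2 (19.2% and 13.2%), and with Tgfb 2 and 7 (27.4% and 29.3%). Vdr, the vitamin D receptor and a known activator of Cldn2, fell most with BMP2, BMP5, BMP7 and Tgfb. It stood at 5142 ± 269 normalized counts in controls, 468 ± 95.1 with BMP2, 1930 ± 600 with BMP5 and 2043 ± 127 with BMP7 (log2 -3.48, -1.45 and -1.33, limma adjusted p 4.74e-13, 2.16e-06 and 3.69e-06). With Tgfb, Vdr went from 120 ± 8.02 to 19.6 ± 2.01 TPM (log2 -2.55, limma adjusted p 7.97e-06). In the reported fits Cldn2 fell with BMP2, BMP4 and Tgfb and did not pass with BMP5 or BMP7. A link between Vdr and Cldn2 was not tested. Klf4, a factor of differentiated epithelium, rose from 498 ± 78.7 to 3332 ± 513 with BMP2 and 7670 ± 1270 with BMP4 (log2 2.74 and 3.94, limma adjusted p 2.85e-12 and 6.49e-13). Klf4 also rose most with BMP7, to 836 ± 104 (log2 0.75, limma adjusted p 0.000651). Klf5 rose most with BMP5, from 7950 ± 686 to 10677 ± 1151 normalized counts (log2 0.42, limma adjusted p 0.0154). It also rose most with Tgfb, from 126 ± 5.09 to 214 ± 21.9 TPM (log2 0.76, limma adjusted p 0.000628). Grhl2, an activator of junction genes, fell with BMP4 from 1080 ± 52.9 to 442 ± 70.7 normalized counts (log2 -1.30, limma adjusted p 8.74e-10).

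Markers of cell types moved in the same samples. Their counts stand against the shares of all genes, 36.8% higher and 38.4% lower with BMP2 and 33.7% and 31.4% with BMP4. For the others the shares were 16.5% and 9.87% (BMP5), 19.2% and 13.2% (BMP7), and 27.4% and 29.3% (Tgfb). The sum of 6 crypt markers, Lgr5 and Olfm4 among them, was 110718 to 138995 normalized counts in controls, 1247 to 2428 in BMP2, 7179 to 10434 in BMP4, 36139 to 88674 in BMP5 and 33003 to 37329 in BMP7 samples. All 6 fell with BMP2 and with BMP4, 1 fell with BMP5 and 3 with BMP7. With Tgfb all 6 fell, and the sum went from between 2587 and 3031 TPM to between 195 and 199. Thus the groups with the lowest Cldn2 and Cldn8, BMP2 and BMP4, were also those with the lowest crypt sum. The sum of 6 enterocyte markers was 31446 to 63639 in controls, 299900 to 334890 with BMP4 and 35530 to 97310 with BMP2. All 6 rose with BMP4, which was also the group with the highest Cldn15. No other group of the BMP table had an enterocyte sum above 97310. With Tgfb, under which Cldn15 fell, 4 of the 6 enterocyte markers rose and 2 fell, and their sum went from between 3725 and 5404 TPM to between 2977 and 3779. Of 6 Paneth markers, 6 fell with BMP2 and 0 changed with BMP4, and with Tgfb 1 rose and 2 fell. Of 6 goblet markers, 2 rose and 3 fell with BMP2, 4 rose and 1 fell with BMP4, and 5 fell with Tgfb. With BMP2 the goblet split was near the shares of all genes. Of 6 enteroendocrine markers, 4 rose and 1 fell with BMP2, 2 rose and 1 fell with BMP4, and 3 rose with Tgfb. Of 4 tuft markers tested, 3 rose with BMP2, 2 rose and 1 fell with BMP4, and 2 rose with Tgfb. The 6 general epithelial markers (Epcam, Cdh1, Krt8, Krt18, Krt19 and Vil1) all rose with BMP2, BMP4, BMP5, BMP7 and Tgfb, by a median log2 change of 2.54, 1.02, 1.17, 1.31 and 1.93. The part of these marker changes in the results for the junction genes was not tested. In such bulk samples, fewer cells of a type and less RNA per cell cannot be told apart.

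The genes whose levels were most like those of each junction gene over the 20 samples of the BMP table were ranked by Pearson's r across 11856 genes, as a description. The samples share their groups, so such values follow the differences between ligands. Cldn8 was most like Lgr5, the crypt stem cell receptor (r 0.9621), and Zfp41 (0.9564). Cldn2 was most like Itpripl1 and Uck2 (0.9896 and 0.9894), and Cldn15 like Ces1e and Cd302 (0.992 and 0.99). Cldn4 went with Rras and Litaf (0.991 and 0.9906), Cldn23 with Cstb and Clic1 (0.9932 and 0.9909), and F11r with Ctsl and Rap1b (0.9961 and 0.9959). Cldn3 went with Ube2b and Psmd8 (0.9822 and 0.9788), Cldn7 with Arpc3 and Gng5 (0.9912 and 0.9902), Ocln with Jkamp and Tmem63b (0.9778 and 0.9762), and Tjp1 with Zswim6 and Itpr3 (0.993 and 0.9916). Among the 10 genes, Cldn23 and F11r were closest (0.991) and Cldn4 and Cldn23 nearly so (0.976). Cldn2 ran with Cldn8 (0.935) more than with the other pore, Cldn15 (0.485). Cldn15 ran against Tjp1 (-0.902) and Cldn4 (-0.897).

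In the mesenchymal samples, 1 fresh and 1 immortalised with no replicate, Tjp1 had high TPM in both and F11r in the fresh sample alone. Tjp1, a scaffold that many cell types use, stood at 47.9 and 53.2 TPM, and F11r at 49.1 and 1.22 TPM. The sum of the immune and endothelial markers was 23.5 TPM in the fresh and 1.69 TPM in the immortalised sample. That of the epithelial markers was 33.8 and 6.73 TPM. Which cells gave the F11r of the fresh sample was not tested. Cldn15 had 4.72 and 0.561 TPM, and Ocln 0.725 TPM in the fresh sample. Cldn3, Cldn4 and Cldn23 were at or under 0.212 TPM in both, and Cldn2, Cldn7 and Cldn8 were listed at 0 in both. This table was scaled on its own, so its levels are not tested against those of the organoids.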

How the data were processed

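RNA-seq libraries from 28 samples were used, in 3 tables that were scaled separately, so tests stayed within a table. Library preparation used a KAPA mRNA kit, and reads were sequenced as 75 nt single ends, per the labels' protocols, in more than 1 run, with samples not assigned to runs. The submitters' processing notes name Trim Galore, Salmon, DESeq2 and GRCm39. In the BMP table the deposited values are a signal, gene counts divided by a size factor, read from the values themselves, with 3 significant digits. Divided by what 1 read was worth (0.826 to 1.279), 100.0% of the 180721 values up to 20 reads were whole within 0.6% plus 0.01 read. The deposited TGFb and mesenchymal values are TPM, since each column sums to 1000000, and their depth is unknown.

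The tests were two-sided limma tests (version 3.58.1, R 4.3.3) with an intensity trend, on values as log2(value + 1), for genes at a mean of at least 10 normalized counts (14746) or 1 TPM (12959). The 6 groups of the BMP table shared 1 fit, with no block, and p-values were adjusted by Benjamini-Hochberg. Log2 changes understate those of low genes. Where no sample of a group exceeded 3 reads, the group was taken to be at the floor. Floors cover counting error only, as PCR copies cannot be told from separate molecules without identifiers. The method was tested on simulated data in which a small share of genes changed and the scaling was known. That simulation does not cover the choice of scaling or the many genes that changed here. Alternatives were edgeR 4.0.16 and DESeq2 1.42.0 on the recovered reads, other scalings, pseudocounts and filters, a replicate block, and leaving out each replicate.

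Replicate numbers come from the labels, which do not say what they share. Samples with the same number deviated together from their group means (correlation above 0.1 for every pair) in BMP3, BMP4, BMP5 and BMP7 against control, BMP5 against BMP7 and BMP4 against BMP7, so there the numbers pair the samples, and the replicate block is given where it changed a call. In the comparisons with BMP2 and in Tgfb at least 1 pair did not reach that.

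The 10 genes and the lists were chosen with earlier results of these data known. From each list of other junction genes, the text names the gene that rose most and the one that fell most in each comparison with control, among those past the threshold at a mean of at least 50 normalized counts or 10 TPM with no overlap between groups. For each junction gene the 2 genes with the highest correlation were named. Promoter sequences come from RefSeq.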

Additional observations from a re-analysis of the deposited data

Results flagged for a closer look

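In the 20 groups of 4 samples tested, 1 value stood apart from its group by Dixon's criterion, and chance gives about 1 in 20. It was F11r in control replicate II, at 3510 normalized counts, where the other 3 controls had 2740 to 2850. It lay below every sample given BMP2, BMP4, BMP5 or BMP7.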

How the results depend on the processing

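Of 91 results on the 10 genes, where BMP3 against control and BMP5 against BMP7, in which no gene was called, enter only by their largest difference, 74 kept their direction and their side of the threshold under every alternative run for them. Of the 1632 values these alternatives gave, 1585 kept both. With the sign kept, 22 lost the call and 14 gained it. The other 11 changed sign, and some of these also lost or gained the call. Uncalled differences of single genes in those 2 comparisons crossed 0 between settings, for instance Cldn4 in BMP5 against BMP7, from -0.21 to 0.24. Sign changes with BMP4 against control were Ocln with the same total in every sample (-0.21) and under quantile normalization (-0.23), and Tjp1 under quantile normalization (-0.03). In BMP4 against BMP7 they were Cldn7 under quantile normalization (-0.13), and Ocln with the same total (-0.23), under quantile normalization (-0.18) and with edgeR (-0.01). Ocln in BMP7 against control was -0.05 under quantile normalization. Leaving out 1 replicate each, Cldn8 in BMP5 against control ran from -0.24 to 0.09 and Cldn23 in BMP4 against BMP7 from -0.39 to 0.08. None of these passed the test in the reported fit except Ocln and Tjp1 in BMP4 against control and Cldn7 in BMP4 against BMP7, and the cause was not tested. The number of the 10 genes called stayed within 1.5 times in every comparison and setting; with BMP4 against control it went from 10 to 7 under both scalings.

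The replicate block changed 3 calls: Cldn2 with BMP5 and BMP7, given above, and Cldn3 with Tgfb (limma adjusted p 0.00792), where the numbers do not pair the samples. Depth limits Cldn8, at 0 to 35.6 normalized counts.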
